A study of Homo sapiens with 16 samples.

Results

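The 35 regions described here are H3K27ac windows of the IFIT gene cluster, out of 151654 regions counted in the study. A region is a 1000 bp window centred on a merged ATAC-seq peak, and it was taken when the deposited annotation assigned it to IFIT1, IFIT1B, IFIT2, IFIT3 or IFIT5 with its centre at most 50000 bp from the assigned transcription start site (TSS). IFIT1 held 3 regions, IFIT1B 7, IFIT2 7, IFIT3 12 and IFIT5 6. They spread over 149.1 kb of chromosome 10, from 89277817 to 89426933 in hg38. Each region is named by its gene and the signed distance in bp of its centre from the TSS, so that IFIT2 -23632 lies upstream of IFIT2. Of the 35 regions, 19 overlapped another member window and the set formed 25 separate stretches, so neighbouring windows shared tags and were not independent measurements.

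The cells were THP-1, a human monocytic acute myeloid leukemia line, and the question was how IFNα changed chromatin with and without USP18, a negative regulator of type I IFN signaling. H3K27ac, the acetylated histone mark of active promoters and enhancers, was measured by ChIP-seq in 4 groups of 2 libraries. WT cells were given as Cas9 only in the genotype label and as carrying a control sgRNA in the treatment notes, and USP18-/- cells had USP18 knocked out by CRISPR and were grown from sorted single cells. How many clones stand behind the USP18-/- libraries is not given in the sources used here. Both were untreated or were given 1000 U/ml IFNα for 6 h. Loss of USP18 and other differences of such a line cannot be told apart in the genotype comparisons. The 2 libraries of a group were given as biological replicates, and every p-value here measures only the spread between such libraries.

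The IFIT genes encode interferon-induced proteins with tetratricopeptide repeats, a family that sits side by side on 1 chromosome arm and is among the strongest type I IFN responses known. IFIT1 binds the ends of foreign RNA that lack the cap methylation of host mRNA and blocks its translation, IFIT2 and IFIT3 form complexes with it, IFIT5 binds RNA ends on its own, and IFIT1B is a close relative of IFIT1 that is less well understood. In the textbook pathway IFNα engages its receptor, the kinases JAK1 and TYK2 act on STAT proteins, and the ISGF3 complex, which holds STAT2 and IRF9, binds the interferon-stimulated response element (ISRE).

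The ISRE core searched here was TTTCNNTTTC on either strand. A match is a description of letters and not a bound site. The sequences below come from the RefSeq promoters of GRCh38.p14. The IFIT1, inner IFIT3 and IFIT5 stretches lie under the windows nearest the TSS. The outer IFIT3 stretch lies under IFIT3 +117, and the IFIT1B stretch lies under no member window. All stretches run 5′ to 3′ on the plus strand, on which all 5 genes lie, with core matches in capitals. The IFIT1 stretch covers chr10:89392487-89392534 and holds 2 cores from 116 to 94 bp before the TSS of that promoter set, 89392623. At IFIT1 and IFIT3 that set places the TSS further downstream than the annotation behind the window names does. Distances in the 2 annotations are therefore not interchangeable, and the outer IFIT3 cores lie downstream of the TSS that the window names use. IFIT3 has 2 annotated TSSs in that set, and the outer stretch covers chr10:89327821-89327889 and the inner one chr10:89332415-89332492, each with 2 cores. The IFIT5 promoter holds 3 cores, of which the last 2 are shown at chr10:89414544-89414573, and the very last spans the TSS at 89414568. The IFIT1B stretch, chr10:89377896-89377995, is shown because the IFIT1B promoter held 0 cores. IFIT2 was not among the promoters matched.
IFIT1 promoter: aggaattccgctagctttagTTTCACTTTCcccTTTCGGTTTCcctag
IFIT3 outer promoter: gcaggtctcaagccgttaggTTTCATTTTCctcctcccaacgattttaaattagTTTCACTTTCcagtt
IFIT3 inner promoter: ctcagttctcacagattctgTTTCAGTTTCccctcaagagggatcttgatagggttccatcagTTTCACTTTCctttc
IFIT5 promoter: tttagTTTCGATTTCttaagTTTCAGTTTC
IFIT1B promoter: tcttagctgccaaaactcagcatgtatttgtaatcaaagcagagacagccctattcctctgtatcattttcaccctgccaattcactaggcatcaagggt

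Away from the promoters, 5 windows more than 3000 bp from a TSS held a core. The window not printed here, IFIT1B -13333, held 2 cores and was not called in the difference of IFN effects given below. The 4 others are shown from hg38, again with matches in capitals. They lie at chr10:89278186-89278267 for IFIT2 -23632, chr10:89295772-89295864 for IFIT2 -6059, chr10:89296621-89296670 for IFIT2 -5392 and chr10:89350874-89351000 for IFIT3 +18543.
IFIT2 -23632: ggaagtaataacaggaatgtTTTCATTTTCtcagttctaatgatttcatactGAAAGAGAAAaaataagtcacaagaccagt
IFIT2 -6059: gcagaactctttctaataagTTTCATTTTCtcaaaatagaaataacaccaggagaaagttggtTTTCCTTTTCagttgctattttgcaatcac
IFIT2 -5392: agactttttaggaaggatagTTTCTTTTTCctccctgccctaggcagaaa
IFIT3 +18543: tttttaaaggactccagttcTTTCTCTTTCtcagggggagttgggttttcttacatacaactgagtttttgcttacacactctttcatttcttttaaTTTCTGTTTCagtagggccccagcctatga

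Between 9046141 and 12935453.5 tags fell in the regions of a library, and 123276 regions, 33 of the 35 IFIT regions among them, held enough counts to be tested. Values are tag counts scaled by TMM to a common library size (CPM), and at the weakest windows they rest on few tags, such as 4.5 tags for IFIT2 -23632 in 1 untreated WT library. Of the 33, 8 would not have reached the count filter without the IFN treated USP18-/- libraries. For 1 of the 8, IFIT1B -22414, the filter was met by 1 such library and 1 untreated WT library. Of the 8, 3 were called with IFN in USP18-/- cells, 3 between genotypes under IFN and 1, IFIT2 -23632, in the difference. Those calls follow in part from the filter. A region was called when its fitted level moved more than 2-fold with an adjusted p under 0.05, by the quasi-likelihood test of edgeR and the Benjamini-Hochberg method across every tested region. The window at the USP18 TSS, on chromosome 22, gave 7.88 and 7.64 CPM in untreated WT cells and 8.23 and 8.51 CPM in untreated USP18-/- cells. Acetylation of that window does not read out the deletion, so the genotype labels were not checked by it. Windows at 9 monocytic genes were all present, with SPI1 at a median of 86.8 CPM and CSF1R at 2.08 CPM. Other lineages had medians of up to 8.29 CPM, at APOA1, with 5.41 to 6.62 CPM at 3 B cell genes, so the 2 ranges overlapped, and CD3D, GATA1 and HBB had no window. Whether other cells had a part in the values was not tested.

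Across the locus, acetylation stood in a few peaks at and between the promoters, and its sum rose with IFN in both genotypes. Summed over 1 window per overlapping stretch, the cluster held 50.8 and 46.6 CPM in untreated WT cells and 152 and 147 CPM after IFN. In USP18-/- cells the sums were 75.4 and 72.3 CPM untreated and 568 and 589 CPM after IFN. No group overlapped another, and the order was untreated WT, untreated USP18-/-, IFN treated WT and IFN treated USP18-/- cells. In bulk ChIP-seq a larger share of cells with the mark and a higher level per cell cannot be told apart.

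**Figure D1:**
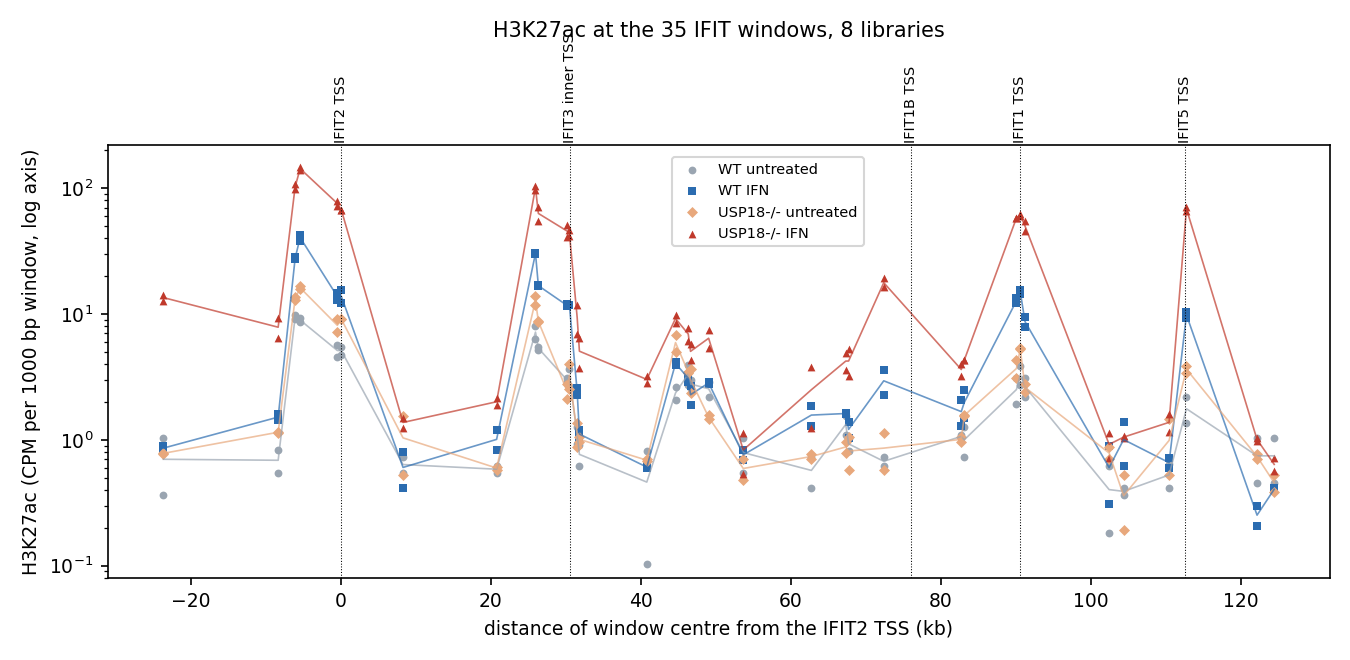
H3K27ac in CPM per 1000 bp window (log axis) against distance of the window centre from the IFIT2 TSS in kb, for the 35 IFIT windows. Points are the 8 libraries by group, lines join group means and dotted lines mark 1 TSS per gene. IFN treated USP18-/- cells sit highest at each peak, up to 148 CPM at IFIT2 -5392.

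At the windows nearest the TSS the IFIT genes shared 1 order of groups, with the untreated pairs lowest and IFN treated USP18-/- cells highest. IFIT1 +30, at chr10:89392076-89393076 over exon and UTR, gave 3.84 and 2.73 CPM in untreated WT cells and 14.4 and 15.5 CPM after IFN. The same window gave 5.34 and 5.22 CPM in untreated USP18-/- cells and 61.9 and 60.5 CPM after IFN. None of the 4 pairs overlapped. IFIT2 +98, at chr10:89301547-89302547 over exon and UTR, gave 5.50 and 4.73 CPM in untreated WT and 15.5 and 12.1 CPM in IFN treated WT cells. It gave 9.10 and 9.09 CPM in untreated and 66.9 and 67.6 CPM in IFN treated USP18-/- cells. Here too all 4 pairs were apart.

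IFIT3 -22, at chr10:89331957-89332957 on the inner TSS and inside the IFIT3 gene span, gave 2.70 and 3.64 CPM in untreated WT cells and 11.7 and 11.8 CPM after IFN. In USP18-/- cells it gave 4.03 and 2.51 CPM untreated and 41.6 and 46.2 CPM with IFN. Its untreated pairs overlapped between genotypes, and the IFN treated pairs did not. IFIT5 +167, at chr10:89414235-89415235 in the first exon and 5′ UTR, gave 1.35 and 2.18 CPM in untreated and 9.34 and 10.3 CPM in IFN treated WT cells. Its USP18-/- values were 3.41 and 3.87 CPM untreated and 66.2 and 70.6 CPM with IFN, and no pairs overlapped.

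IFIT1B had no window at its TSS. The nearest, IFIT1B -3684 at chr10:89373872-89374872, lies outside the gene by RefSeq and within the IFIT3 and LIPA gene spans of GENCODE. It gave 0.622 and 0.728 CPM in untreated and 2.29 and 3.60 CPM in IFN treated WT cells. In USP18-/- cells it gave 1.14 and 0.580 CPM untreated and 19.2 and 16.2 CPM after IFN, so its untreated pairs overlapped and its IFN pairs did not.

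Compared with each other at these equal-length windows, mean levels in untreated WT cells ran from 5.11 ± 0.54 CPM (SD, n = 2) at IFIT2 through 3.28 ± 0.782 at IFIT1, 3.17 ± 0.668 at IFIT3 and 1.77 ± 0.591 at IFIT5 to 0.675 ± 0.0748 at IFIT1B. IFIT1 and IFIT3 overlapped there. In IFN treated USP18-/- cells the order was 68.4 ± 3.13 CPM (SD, n = 2) at IFIT5, 67.3 ± 0.498 at IFIT2, 61.2 ± 1.03 at IFIT1, 43.9 ± 3.23 at IFIT3 and 17.7 ± 2.10 at IFIT1B. IFIT5 had moved from the fourth place to the first, although its 2 libraries overlapped those of IFIT2. Both orders rest on the inner IFIT3 TSS. On the outer one, IFIT3 +117 held 7.18 ± 1.14 CPM in untreated WT and 101 ± 5.31 CPM in IFN treated USP18-/- cells (SD, n = 2). Its means were above those of all 5 windows in both groups. The IFIT1B window was the lowest of the 5 in all groups.

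**Figure D2:**
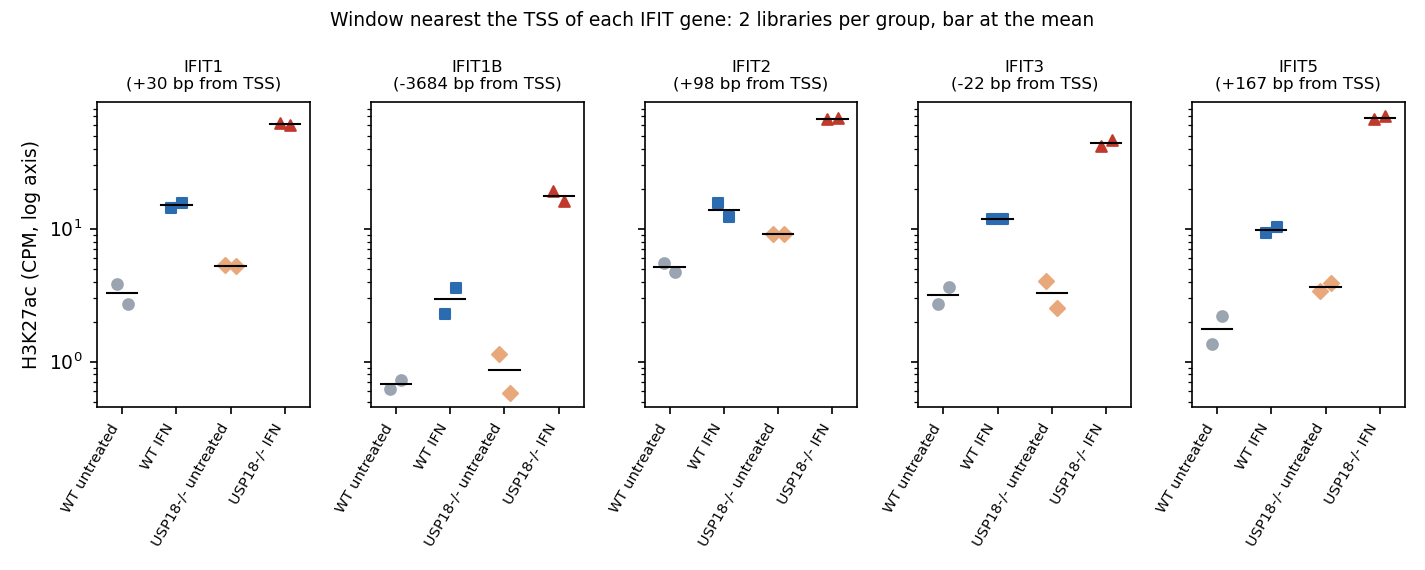
H3K27ac in CPM (log axis) at the window nearest the TSS of each IFIT gene, with 1 point per library, 2 libraries per group and a bar at the mean. IFN treated USP18-/- libraries lie from 16.2 CPM at IFIT1B to 70.6 CPM at IFIT5, above all others in each panel.

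The first comparison asked what IFNα did in WT cells. Of the 33 tested IFIT regions, 13 rose and 0 fell, where 0.343% of all tested regions rose and 0.0389% fell. The 13 were all 3 regions of IFIT1, 4 of 7 at IFIT2, 4 of 12 at IFIT3, 1 of 7 at IFIT1B and 1 of 4 tested at IFIT5. The median log2 fold change of the 33 was 1.12, against -0.01 over all tested regions. At 23 of the 35 regions both IFN treated libraries lay above both untreated ones, and at 2 regions both lay below, where the shares of all 151654 regions were 17.8% above and 20.2% below. No IFIT region fell in any of the 5 comparisons by edgeR's test or by DESeq2, and at an unadjusted p under 0.05 there were 0 lower regions in 4 of them and 1 in the untreated genotype comparison.

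IFIT5 +167 rose by 2.45 in log2 units (SE 0.24, adjusted p = 5.0e-13), the highest value of the set and 5.45-fold. IFIT1 +30 rose by 2.20 (SE 0.19, adjusted p = 6.9e-15), and IFIT2 +98 by 1.44 (SE 0.18, adjusted p = 5.6e-09). At the IFIT3 inner TSS, IFIT3 -22 rose by 1.88 (SE 0.21, adjusted p = 2.3e-10). IFIT1B -3684 rose by 2.09 (SE 0.41, adjusted p = 0.00065), which fell to 1.73 with an adjusted p of 0.14 when the second IFN treated WT library was left out. These fitted values are differences and not levels, so the low IFIT1B window changed about as steeply as the IFIT1 window at a lower level.

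For IFIT2 and IFIT3 the window with the highest mean level over all libraries was not the window nearest the TSS. IFIT2 -5392, at chr10:89296057-89297057, lies upstream of the RefSeq IFIT2 TSS but inside the IFIT2 and LIPA spans of GENCODE. It gave 8.61 and 9.28 CPM in untreated and 42.7 and 38.3 CPM in IFN treated WT cells, and rose by 2.18 in log2 units (SE 0.13, adjusted p = 9.7e-24). IFIT3 +117, at chr10:89327436-89328436 on the outer IFIT3 TSS, gave 7.98 and 6.37 CPM and then 30.0 and 30.7 CPM, a rise of 2.09 (SE 0.14, adjusted p = 3.9e-20). Both windows held more acetylation than the windows nearest the TSS of IFIT1, IFIT2 and IFIT5 in IFN treated WT cells, with no overlap.

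In USP18-/- cells IFNα moved more of the cluster and moved it further. There 26 of the 33 tested IFIT regions rose and 0 fell, where 7.12% of all tested regions rose and 4.41% fell. Of the 26, 3 reached the count filter only through the IFN treated USP18-/- libraries. By gene, 3 of 3 regions rose at IFIT1, 6 of 7 at IFIT2, 10 of 12 at IFIT3, 6 of 7 at IFIT1B and 1 of 4 tested at IFIT5. The median log2 fold change was 2.34, against -0.01 over all tested regions. That median covers the 8 regions that needed the IFN treated USP18-/- libraries to reach the filter, and follows in part from it. Both IFN treated libraries lay above both untreated ones at 31 of 35 regions and below them at 0, where the shares of all regions were 26.2% above and 25.5% below.

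The steepest rise was at IFIT1B -3684, by 4.33 in log2 units (SE 0.27, adjusted p = 6.3e-24), or 20.1-fold. IFIT5 +167 rose by 4.23 (SE 0.16, adjusted p = 5.7e-38) and IFIT1 +30 by 3.53 (SE 0.15, adjusted p = 8.1e-35). IFIT3 -22 rose by 3.73 (SE 0.17, adjusted p = 9.6e-32) and IFIT2 +98 by 2.88 (SE 0.13, adjusted p = 4.0e-32). The highest windows rose as well, IFIT2 -5392 from 15.7 and 16.6 to 138 and 148 CPM and IFIT3 +117 from 13.8 and 11.9 to 105 and 97.5 CPM. At the other end, IFIT3 +15828 rose by 1.00 (SE 0.24, adjusted p = 0.00069), on the edge of the fold threshold, and was 0.82 without the second IFN treated USP18-/- library and 0.96 without the first untreated one. The 7 tested regions that were not called were 3 at IFIT5, 2 at IFIT3, 1 at IFIT2 and 1 at IFIT1B, with log2 fold changes up to 1.49.

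Without IFN few IFIT regions passed the thresholds between genotypes. Of the 33 tested IFIT regions, 2 were higher in USP18-/- than in WT cells and 0 were lower, where 5.69% of all tested regions were higher and 10.8% lower. The share of IFIT regions, 6.06%, was close to that background. The 2 were IFIT5 +167, higher by 1.01 in log2 units (SE 0.28, adjusted p = 0.0029), and IFIT3 +14128, at chr10:89346107-89347107 within the IFIT3 and LIPA spans. The IFIT5 window sat at the threshold, since its value was 0.73 (adjusted p = 0.094) without the first untreated WT library and 0.93 without the second untreated USP18-/- library. IFIT3 +14128 gave 2.07 and 2.64 CPM in untreated WT cells and 6.83 and 5.03 CPM in untreated USP18-/- cells, a difference of 1.32 (SE 0.26, adjusted p = 2.6e-05). It was the member with the lowest difference of IFN effects, at -0.14 (SE 0.35, adjusted p = 0.88), and was named after its values were seen.

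With the adjusted p alone and no fold threshold, 9 of the 33 IFIT regions were higher in USP18-/- cells and 0 lower, where 16.9% of all tested regions were higher and 16.7% lower. Besides IFIT3 +14128 and IFIT5 +167, they lay at IFIT2, the outer IFIT3 TSS and IFIT1, with IFIT2 -5392 higher by 0.85 (SE 0.14, adjusted p = 7.1e-07), IFIT3 +117 by 0.85 (SE 0.16, adjusted p = 7.9e-06) and IFIT2 +98 by 0.83 (SE 0.19, adjusted p = 0.00019). IFIT1 +30 was higher by 0.70 (SE 0.23, adjusted p = 0.012). The median over the 33 regions was 0.36, while 437 other tested regions within 5.0 Mb of the cluster had a median of -0.08 and all tested regions -0.02. IFIT3 -22 differed by 0.05 (SE 0.26, adjusted p = 0.92), so the inner and outer IFIT3 TSSs gave unlike values, a contrast that was not tested.

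Under IFN the genotypes were far apart. Of the 33 tested IFIT regions, 27 were higher in USP18-/- cells and 0 lower, where 11.3% of all tested regions were higher and 13.5% lower. The median log2 difference was 1.89, against 0.00 over all tested regions and -0.06 over the 437 regions nearby. The 1.89 covers the 8 IFIT regions that needed the IFN treated USP18-/- libraries to reach the filter, and follows in part from it. Both USP18-/- libraries lay above both WT libraries at 31 of 35 regions and below them at 0, where the shares of all regions were 30.9% above and 29.9% below. IFIT5 +167 was higher by 2.80 in log2 units (SE 0.14, adjusted p = 1.0e-30). IFIT2 -23632 was higher by 3.96 (SE 0.30, adjusted p = 4.6e-20), but it reached the count filter only through the IFN treated USP18-/- libraries. It is 1 of 3 such windows among the 27, so those calls follow in part from the filter. IFIT1 +30 was higher by 2.03 (SE 0.13, adjusted p = 2.4e-24), which is 4.09-fold. IFIT3 +15828 and IFIT3 +18543 were near the threshold, at 1.16 and 1.18, and stood at 0.96 without the second and at 0.89 without the first IFN treated USP18-/- library in turn.

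Whether the IFN effect itself differed between genotypes was tested as the difference of the 2 effects. It was called higher in USP18-/- cells at 17 of the 33 tested IFIT regions and lower at 0, where 4.61% of all tested regions were called higher and 2.55% lower. The median difference was 1.44 on the log2 scale, against 0.01 over all tested regions, and 32 of the 33 values were positive. Of the 33, 8 would not have reached the count filter without the IFN treated USP18-/- libraries, which favours positive values. The median and the count of positive values thus follow in part from the filter. The share of positive values over all tested regions was not counted. All 3 regions of IFIT1 were called, with 4 of 7 at IFIT2, 6 of 12 at IFIT3, 3 of 7 at IFIT1B and 1 of 4 at IFIT5. The IFN effects in the 2 genotypes share no library, but each shares its libraries with the genotype comparisons above.

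**Figure D3:**
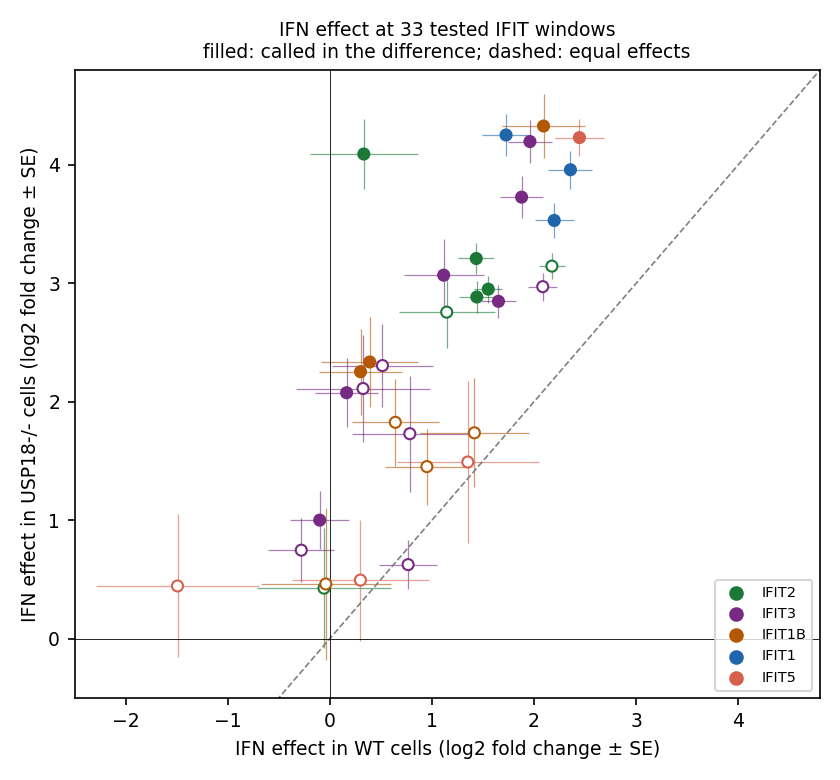
IFN effect in WT cells (horizontal) against IFN effect in USP18-/- cells (vertical) at the 33 tested IFIT windows, as log2 fold changes with SE bars and colours by gene. Filled points are the 17 called in the difference of the effects, the dashed line marks equal effects, and 32 of 33 points lie above it. Of the 33 windows, 8 would not have reached the count filter without the IFN treated USP18-/- libraries, so their place follows in part from the filter.

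IFIT2 -23632 had the largest difference of the 33 tested IFIT regions. Like several other members, it was called with IFN in USP18-/- cells but not in WT cells. IFIT1B -8755, for example, had IFN effects of 0.30 in WT and 2.25 in USP18-/- cells, and IFIT1B -8370 of 0.39 and 2.34. IFIT2 -23632, at chr10:89277817-89278817, is intergenic by RefSeq and lies on an exon of a noncoding LIPA transcript in GENCODE. It gave 1.04 and 0.364 CPM in untreated WT cells and 0.894 and 0.823 CPM in IFN treated WT cells, so the WT groups overlapped. Without IFN the USP18-/- libraries held 0.788 and 0.774 CPM, and with IFN they held 14.2 and 12.8 CPM. Its IFN effect was 0.33 in WT cells (SE 0.53, adjusted p = 0.92) and 4.09 in USP18-/- cells (SE 0.30, adjusted p = 9.5e-21). The difference was 3.76 (SE 0.68, adjusted p = 1.7e-05), and 2.88 with an adjusted p of 0.067 when the first untreated WT library was left out. It reached the count filter only through the IFN treated USP18-/- libraries, and it holds the 2 ISRE cores printed above.

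At IFIT1 the difference was largest at the window furthest downstream. IFIT1 -480 gave 3.11 and 1.91 CPM, then 13.3 and 12.1 CPM with IFN in WT cells, and 4.29 and 3.09 CPM, then 57.7 and 58.3 CPM in USP18-/- cells, with a difference of 1.60 (SE 0.31, adjusted p = 6.8e-05). IFIT1 +30 had a difference of 1.33 (SE 0.27, adjusted p = 0.00014). IFIT1 +658, in the 5′ UTR of another isoform, gave 3.11 and 2.18 CPM and then 7.95 and 9.47 CPM in WT cells, and 2.80 and 2.42 CPM and then 54.7 and 45.5 CPM in USP18-/- cells, with a difference of 2.53 (SE 0.34, adjusted p = 9.2e-09). The windows overlap in part, and whether their differences differ was not tested.

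At IFIT2, the 2 windows around the TSS had differences of 1.78 at IFIT2 -435 (SE 0.24, adjusted p = 1.1e-08) and 1.44 at IFIT2 +98 (SE 0.23, adjusted p = 1.6e-06). IFIT2 -435 gave 5.70 and 4.55 CPM, then 14.7 and 12.9 CPM in WT cells, and 9.10 and 7.16 CPM, then 78.6 and 72.7 CPM in USP18-/- cells. IFIT2 -6059 gave 9.85 and 9.10 CPM, then 27.3 and 28.2 CPM in WT cells, and 13.6 and 13.0 CPM, then 107 and 98.4 CPM in USP18-/- cells, with a difference of 1.40 (SE 0.18, adjusted p = 6.5e-09). The most acetylated window, IFIT2 -5392, had a difference of 0.97 (SE 0.17, adjusted p = 1.4e-05), which passed the adjusted p but not the fold threshold, and crossed it at 1.02 without the first untreated WT library, 1.05 without the first IFN treated WT library and 1.01 without the second untreated USP18-/- library.

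At IFIT3 the 2 TSSs gave unlike values for the difference, a contrast that was not tested. On the outer TSS, IFIT3 +117 had a difference of 0.89 (SE 0.20, adjusted p = 0.00045), not called, and 1.05 without the second untreated WT library. The overlapping IFIT3 +500 gave 5.50 and 5.19 CPM, then 16.7 and 16.9 CPM in WT cells, and 8.75 and 8.70 CPM, then 55.2 and 70.8 CPM in USP18-/- cells, with a difference of 1.20 (SE 0.23, adjusted p = 7.0e-05) that was 0.98 without the second IFN treated USP18-/- library. On the inner TSS, IFIT3 -356 gave 2.90 and 3.09 CPM, then 11.9 and 11.5 CPM in WT cells, and 2.80 and 2.13 CPM, then 40.9 and 50.5 CPM in USP18-/- cells, with a difference of 2.24 (SE 0.32, adjusted p = 7.2e-08). IFIT3 -22, which overlaps it, had a difference of 1.85 (SE 0.31, adjusted p = 2.6e-06). The inner values were the higher ones. In WT cells the IFN effects were 1.96 and 1.88 on the inner TSS and 2.09 and 1.65 on the outer one.

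Further into IFIT3, levels were low and calls were less firm. IFIT3 +1014 gave 0.933 and 1.27 CPM, then 2.58 and 2.26 CPM in WT cells, and 0.875 and 1.35 CPM, then 6.94 and 11.8 CPM in USP18-/- cells, with a difference of 1.95 (SE 0.54, adjusted p = 0.0072). That call was lost without the second untreated WT library (adjusted p = 0.14), the first untreated USP18-/- library (adjusted p = 0.061) or the second IFN treated USP18-/- library (adjusted p = 0.066). IFIT3 +18543, some way past the gene by RefSeq, gave 2.90 and 2.18 CPM, then 2.78 and 2.88 CPM in WT cells, and 1.58 and 1.45 CPM, then 7.47 and 5.35 CPM in USP18-/- cells. Its IFN effect was 0.16 in WT cells (SE 0.31, adjusted p = 0.94) and 2.08 in USP18-/- cells (SE 0.29, adjusted p = 9.3e-09), with a difference of 1.91 (SE 0.44, adjusted p = 0.00075). Its WT groups overlapped, as at IFIT2 -23632, and its call held without any 1 library. Another distal window with 2 ISRE cores, IFIT1B -13333, was unlike both. It gave 0.415 and 0.728 CPM, then 1.29 and 1.85 CPM in WT cells, which did not overlap, and 0.700 and 0.774 CPM, then 1.25 and 3.76 CPM in USP18-/- cells, with a difference of 0.32 (SE 0.75, adjusted p = 0.87), and was named after its values were seen.

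IFIT3 +15828 gave 3.94 and 2.73 CPM, then 2.88 and 3.29 CPM in WT cells, and 3.41 and 3.48 CPM, then 6.14 and 7.70 CPM in USP18-/- cells. Its difference of 1.10 (SE 0.38, adjusted p = 0.041) was lost without 6 of the 8 libraries in turn, with adjusted p-values from 0.068 to 0.31 in those 6 fits, which left out the first untreated WT library, either IFN treated WT library, either untreated USP18-/- library or the second IFN treated USP18-/- library. Its adjusted p was the highest of the 17.

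At IFIT1B the difference was called at 3 windows, all upstream. IFIT1B -3684 had a difference of 2.24 (SE 0.61, adjusted p = 0.0064), which had an adjusted p of 0.11 without the second untreated WT library. IFIT1B -8755 gave 1.56 and 1.09 CPM, then 1.59 and 1.65 CPM in WT cells, and 0.788 and 0.967 CPM, then 3.56 and 4.88 CPM in USP18-/- cells, with a difference of 1.95 (SE 0.56, adjusted p = 0.010). The overlapping IFIT1B -8370 gave 1.04 and 0.819 CPM, then 1.39 and 1.03 CPM in WT cells, and 1.05 and 0.580 CPM, then 3.20 and 5.26 CPM in USP18-/- cells, with a difference of 1.95 (SE 0.63, adjusted p = 0.028). The call at IFIT1B -8755 was lost without the first untreated WT library (adjusted p = 0.11), the first untreated USP18-/- library (adjusted p = 0.057) or the second IFN treated USP18-/- library (adjusted p = 0.062). The call at IFIT1B -8370 was lost without either untreated WT library (adjusted p = 0.16 and 0.062), the second IFN treated WT library (adjusted p = 0.10), the second untreated USP18-/- library (adjusted p = 0.13) or the second IFN treated USP18-/- library (adjusted p = 0.17).

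IFIT5 had 1 window called with IFN. IFIT5 +167 had a difference of 1.79 (SE 0.34, adjusted p = 4.9e-05), and 1.38 with an adjusted p of 0.063 without the second untreated WT library. The other 5 windows assigned to IFIT5 stayed between 0.182 and 1.60 CPM in every library. IFIT5 -10144 and IFIT5 -8215 lie in the 3′ UTR of IFIT1 and carry the IFIT5 name because the annotation goes by the nearest TSS. IFIT5 -10144 and IFIT5 +11865 were too low to be tested. IFIT5 +9577, named after its values were seen, held 0.298 and 0.206 CPM in IFN treated WT cells and 0.979 and 1.03 CPM in IFN treated USP18-/- cells. It was among the 27 called between genotypes under IFN, but it reached the count filter only through the IFN treated USP18-/- libraries.

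ISRE cores were more frequent in the IFIT windows than in the region set. A core lay in 14 of the 35 windows, or 40.0%, against 17.2% of all 151654 regions and 3.57% of 35116 RefSeq promoter sequences, which are shorter. Within the central 200 bp, 9 of 35 windows held one, against 5.43% of all regions. Overlapping windows counted the same match again. The GAS core, TTCNNNGAA, lay in 11 of 35 windows against 26.2% of regions, and the NF-kB core, GGGNNNNNCC, in 23 of 35 against 73.2%.

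All 14 windows with an ISRE core rose with IFN in USP18-/- cells, and 11 of them rose in WT cells and 11 were called in the difference. Of the 19 tested windows without a core, 12 rose in USP18-/- cells, 2 rose in WT cells and 6 were called in the difference. Over all tested regions the same calls were also more frequent with a core than without one, at 19.5% and 4.56% for IFN in USP18-/- cells, 1.34% and 0.137% for IFN in WT cells, and 12.9% and 2.89% in the difference. Median log2 fold changes with and without a core were 1.77 and 0.52 in WT cells, 3.18 and 1.73 in USP18-/- cells, and 1.52 and 1.18 in the difference. Most windows with a core lay within 3000 bp of a TSS, and most without one lay further out and held fewer tags. The core, the position and the tag count of a window cannot be told apart in this split. The 2 core-free windows that rose in WT cells were IFIT1B -3684 and IFIT1 +658, the latter beside the cores of the IFIT1 promoter. IFIT1B -3684, with the highest log2 fold change of the 33 in USP18-/- cells, held 0 ISRE cores and 1 GAS core.

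**Figure D4:**
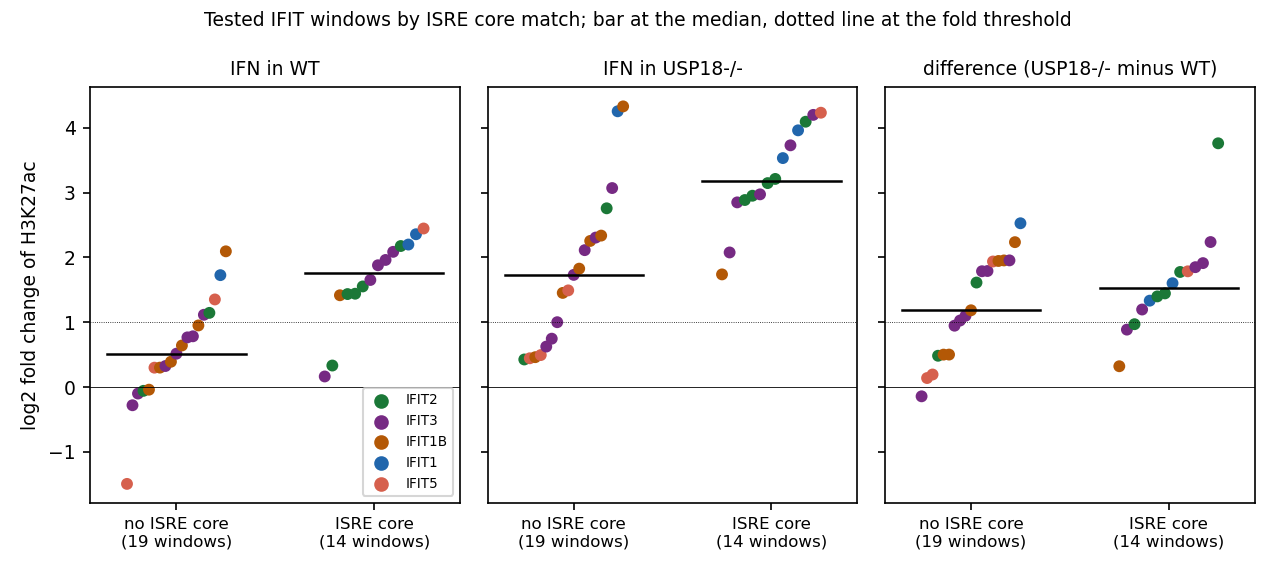
Log2 fold change of H3K27ac at the 33 tested IFIT windows without (19) and with (14) an ISRE core, in the panels for IFN in WT cells, IFN in USP18-/- cells and the difference of the effects. Points are windows coloured by gene and ordered by value, bars mark medians (0.52 and 1.77, 1.73 and 3.18, 1.18 and 1.52), and the dotted line marks the fold threshold.

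Beyond the cluster, a smaller share of regions rose with IFN. Of 69 regions assigned to other genes within 500000 bp of the cluster, 52 were tested. In WT cells 0 of the 52 rose and 0 fell with IFN under these thresholds, where 0.343% of all tested regions rose and 0.0389% fell. At an unadjusted p under 0.05, 3 were up and 3 down, and calls by DESeq2 were not counted for this list. In USP18-/- cells 15 rose (28.8%, against 7.12% of all tested regions) and 2 fell (4.41% of all). In the difference 7 were called higher (13.5%, against 4.61% of all) and 2 lower (2.55% of all). Between genotypes 3 were higher (5.77%, against 5.69% of all) and 1 lower (10.8% of all) untreated. With IFN 18 were higher (34.6%, against 11.3% of all) and 7 lower (13.5% of all). The share of rises in USP18-/- cells was thus above that of all tested regions outside the cluster too. Median log2 fold changes were -0.01 in WT and 0.29 in USP18-/- cells, against 1.12 and 2.34 for the IFIT regions.

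LIPA, which encodes lysosomal acid lipase and whose longest isoforms span most of the IFIT cluster on the other strand, had 3.84 and 4.19 CPM at LIPA +17 in untreated WT cells and 3.88 and 4.12 CPM after IFN. It had 3.24 and 3.0 CPM in untreated and 3.83 and 4.70 CPM in IFN treated USP18-/- cells, with overlapping IFN treated pairs. The window closest to the cluster on that side, LIPA -8523, was looked at after its values were seen. It gave 0.415 and 0.728 CPM, then 1.39 and 1.65 CPM in WT cells, and 0.438 and 1.35 CPM, then 6.76 and 7.51 CPM in USP18-/- cells, where it rose by 3.01 (SE 0.34, adjusted p = 3.8e-12). FAS, a death receptor gene, was not called in WT cells at FAS +269 and rose by 1.15 (SE 0.25, adjusted p = 0.00019) in USP18-/- cells. On the far side KIF20B, a mitotic kinesin gene, differed by 0.04 with IFN in USP18-/- cells at KIF20B -84 (SE 0.13, adjusted p = 0.89), and LINC00865 +560 fell by 1.72 (SE 0.19, adjusted p = 4.6e-12).

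**Figure D5:**
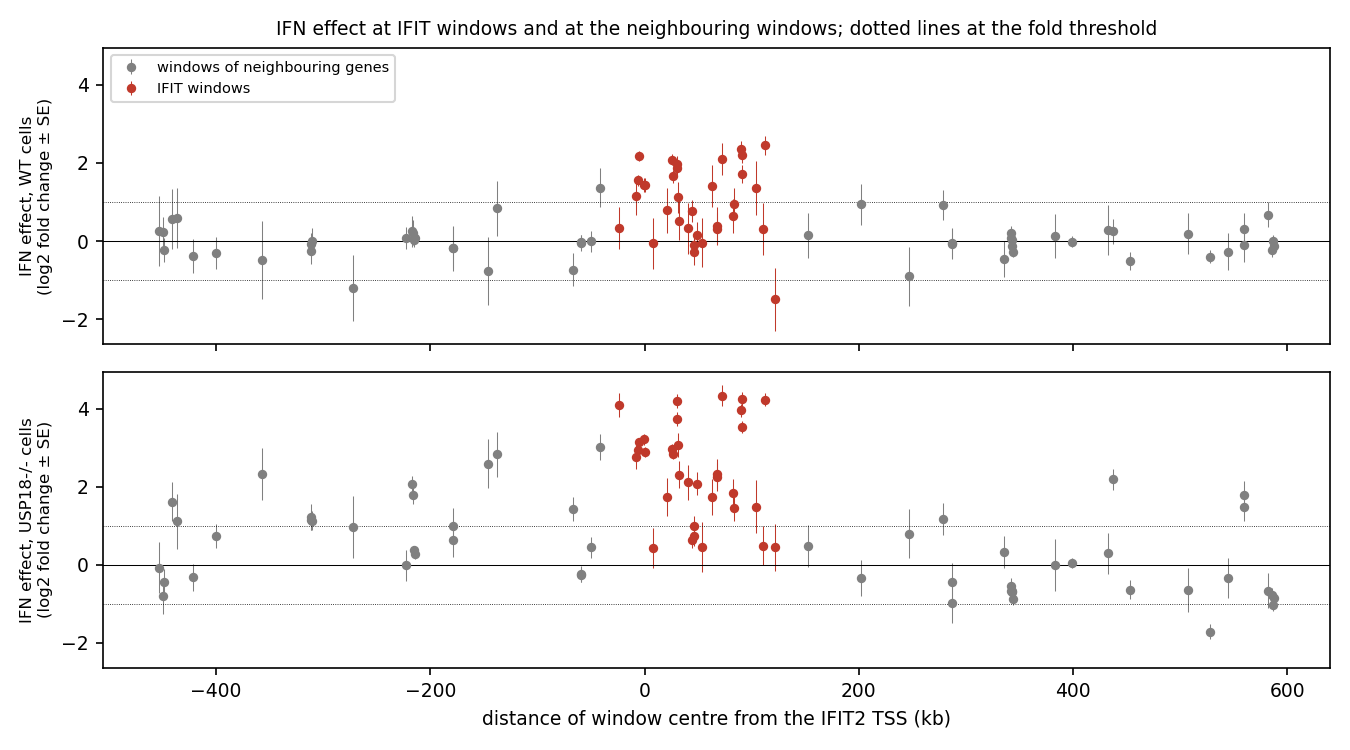
IFN effect as log2 fold change with SE bars at the 33 tested IFIT windows (red) and 52 tested windows of neighbouring genes (grey), against distance from the IFIT2 TSS in kb, for WT cells above and USP18-/- cells below. In WT cells the called windows are IFIT windows, 13 of 33 against 0 of 52, and in USP18-/- cells they are 26 of 33 against 15 of 52 among rises. Over all tested regions 0.343% rose in WT and 7.12% in USP18-/- cells.

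The upstream pathway gave smaller values. Of 49 regions of the receptor and kinase genes IFNAR1, IFNAR2, JAK1 and TYK2, 0 rose and 0 fell with IFN in WT cells, with 0 up and 0 down at an unadjusted p under 0.05, and 1 rose in USP18-/- cells. Between genotypes 1 was higher and 3 lower untreated, and 3 were higher and 6 lower with IFN. Over all tested regions 0.343% rose and 0.0389% fell with IFN in WT cells, so 0 of 49 was near that share. In USP18-/- cells 2.04% of the list rose, against 7.12% of all tested regions. Untreated, 2.04% were higher against 5.69% of all, and 10.8% of all were lower. With IFN, 6.12% were higher against 11.3% of all, and 13.5% of all were lower. IFNAR1 +0 gave 21.2 and 22.6 CPM in untreated WT and 23.3 and 20.7 CPM in IFN treated WT cells, and 34.7 and 35.2 CPM then 29.0 and 31.4 CPM in USP18-/- cells. It was higher in untreated USP18-/- than in untreated WT cells by 0.67 (SE 0.12, adjusted p = 3.1e-06), under the fold threshold.

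Of the ISGF3 genes, IRF9 and STAT2 are given by the window nearest the TSS. IRF9 -20 rose by 1.67 in WT (SE 0.12, adjusted p = 2.5e-18) and by 2.09 in USP18-/- cells (SE 0.11, adjusted p = 4.7e-29), with a difference of 0.42 (SE 0.17, adjusted p = 0.10). STAT2 -32 gave 17.2 and 16.1 CPM, then 21.7 and 20.0 CPM in WT cells, and 18.2 and 17.4 CPM, then 54.1 and 48.1 CPM in USP18-/- cells, with a difference of 1.20 (SE 0.18, adjusted p = 2.8e-07).

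Genes that sense or degrade viral RNA, the functional companions of the IFIT family, held 78 tested regions of 93. With IFN, 14 rose and 0 fell in WT cells and 27 rose and 1 fell in USP18-/- cells, and 20 were called higher and 0 lower in the difference. Between genotypes 2 were higher and 4 lower untreated, and 28 were higher and 2 lower with IFN. The shares that rose were 17.9% in WT and 34.6% in USP18-/- cells, against 0.343% and 7.12% of all tested regions. In the difference 25.6% were called higher, against 4.61% of all. Between genotypes 2.56% were higher untreated, against 5.69% of all, and 35.9% with IFN, against 11.3%. OAS2 -48, at the gene of an oligoadenylate synthetase, rose by 2.22 (SE 0.12, adjusted p = 1.1e-25) in WT and 3.93 (SE 0.11, adjusted p = 2.4e-44) in USP18-/- cells. DDX58, which encodes the RNA sensor RIG-I, gave 3.73 and 3.28 CPM, then 7.15 and 7.41 CPM in WT cells, and 5.25 and 5.90 CPM, then 50.5 and 50.4 CPM in USP18-/- cells at DDX58 +11, with a difference of 2.12 (SE 0.28, adjusted p = 1.1e-08).

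The genes whose TSS window was most like IFIT1 +30 over the 8 libraries were ranked by Pearson's r of log2 CPM among 14275 genes with a window within 1000 bp of a TSS. The 5 highest were EPSTI1 (r = 0.995), IRF7 (r = 0.994), LAP3 (r = 0.994), DTX3L (r = 0.99) and LOC100419583 (r = 0.99), and the other IFIT genes gave 0.986 at IFIT5, 0.979 at IFIT2 and 0.977 at IFIT3. The libraries share 4 group means, so r describes the order and spacing of the groups. EPSTI1 +29 gave 0.415 and 0.455 CPM, then 6.16 and 7.0 CPM in WT cells, and 1.58 and 1.35 CPM, then 35.6 and 32.7 CPM in USP18-/- cells. IRF7, a transcription factor of the IFN response, rose from 28 and 27.2 to 65.4 and 65.2 CPM in WT cells and from 40.4 and 40.6 to 135 and 143 CPM in USP18-/- cells.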

How the data were processed

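H3K27ac ChIP-seq of THP-1 cells (8 libraries, 4 groups of 2) was taken from a table in which the authors had aligned reads to hg38 with Bowtie2 and counted tags with HOMER in annotated windows. Versions are not given in the sources used here. The deposited values are estimated counts, as tags that can be fractional, not normalised, and 52.2% of them were whole. Between 9046141 and 12935453.5 tags per library fell in the windows, which sets the counting precision. The column of ATAC peak file names and 8 input libraries were not analysed here.

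Tags were rounded to whole numbers and scaled by TMM. A region needed 10 or more counts in 2 or more libraries and was fitted in edgeR 4.0.16 (R 4.3.3, limma 3.58.1) by the quasi-likelihood test with 1 mean per group, and was called at more than 2-fold and a Benjamini-Hochberg adjusted p under 0.05. Motifs were searched on hg38 and in RefSeq promoters (GRCh38.p14), and gene spans came from GENCODE. DESeq2 1.42.0, other scalings, filters, fits and left-out libraries were alternatives. Scripts ran in Python 3.11.15 (pandas 2.3.3, numpy 2.4.6) and were tested on simulated data. The text names, for each gene, the window nearest the TSS, the window with the highest mean and each region called in the difference of IFN effects. Same-numbered replicates deviated together with correlations of -0.0028 to 0.0578, so the numbers did not pair the libraries. Members, lists and tests were chosen with earlier results of these data known. Some genes of the lists are not reported here.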

Additional observations from a re-analysis of the deposited data

Results flagged for a closer look

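The IFN effect differed between USP18-/- and WT cells at 17 IFIT windows, by a contrast of the 2 effects in edgeR's quasi-likelihood fit with Benjamini-Hochberg adjustment over all tested regions. On the log2 scale the USP18-/- effect exceeded the WT effect at IFIT2 by 3.76 at -23632, 1.40 at -6059, 1.78 at -435 and 1.44 at +98. At IFIT3 it did so by 1.20 at +500, 2.24 at -356, 1.85 at -22, 1.95 at +1014, 1.10 at +15828 and 1.91 at +18543. At IFIT1B the excess was 1.95 at -8755, 1.95 at -8370 and 2.24 at -3684. At IFIT1 it was 1.60 at -480, 1.33 at +30 and 2.53 at +658, and at IFIT5 it was 1.79 at +167. Several of these windows overlap and share tags, and groups of 2 libraries were too small for a search for single outlying libraries. IFIT2 -23632 reached the count filter only through the IFN treated USP18-/- libraries, so its call follows in part from the filter.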

How the results depend on the processing

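Of 1546 values for 19 named IFIT windows in 5 comparisons under the alternatives, 1473 kept their direction and side of the threshold, 43 lost the call, 6 gained it and 24 changed sign. Counts of IFIT regions called lower were 0 under each alternative run. Left-out libraries gave 12 to 13 rises with IFN in WT cells, 23 to 27 in USP18-/- cells, 1 to 2 regions higher in untreated USP18-/- cells (1 without the second untreated USP18-/- library), 22 to 27 under IFN and 12 to 19 in the difference. Over the whole study those fits called 301 to 466, 7623 to 8783, 6355 to 7001, 12220 to 13948 and 4600 to 5261 regions higher, in that order. Between 119612 and 121535 regions were tested in them. With 1 window per overlapping stretch, 25 stretches stood for the cluster, and not every one was tested. The counts were then 7, 16, 17 and 10 for IFN in WT cells, IFN in USP18-/- cells, genotypes under IFN and the difference. Over the whole study the same setting called 327, 6832, 11034 and 4264 of 98236 tested regions higher, in that order. With only regions within 3000 bp of a TSS the IFIT counts were 12, 12 and 10 for the last 3 comparisons. Over the whole study that setting called 1236, 1817 and 815 of 28847 tested regions higher, in that order. Fewer windows were counted in both settings, so a lower count there is not by itself a lower share. The untreated genotype count of 2 became 1 with the sum of counts as library size, 1 with at least 30 counts, 0 within 3000 bp of a TSS and 9 with no fold threshold. Over the whole study those settings called 4990 of 123276, 4673 of 64305, 881 of 28847 and 20804 of 123276 regions higher. A replicate block gave 13, 25, 2, 27 and 17 regions called higher for IFN in WT cells, IFN in USP18-/- cells, genotypes untreated, genotypes under IFN and the difference, and the replicate numbers did not pair the libraries. Over the whole study the block called 419, 8756, 6996, 13900 and 5690 of 123276 tested regions higher, in that order.

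With the sum of counts as library size, receptor and kinase regions higher in USP18-/- cells went from 1 to 0 untreated and from 3 to 1 under IFN, those lower from 0 to 1 with IFN in USP18-/- cells and from 0 to 1 in the difference, and antiviral regions lower under IFN from 2 to 6. In the central 200 bp, 9 windows held an ISRE core, 1 a GAS core and 9 an NF-kB core. The cause of these shifts was not tested.

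Signs changed only at values that were not called. For IFN in WT cells, IFIT2 -23632 became -0.27 and IFIT3 +18543 -0.0366 without the second untreated WT library, and IFIT3 +15828 became 0.18 without the first. Their other ends over the left-out libraries were 1.21, 0.37 and -0.35 in that order. In the untreated genotype comparison IFIT2 -23632 became -0.41 without the second untreated WT library, and 1.08 without the first. IFIT3 -22 became -0.10 with the sum of counts, -0.0236 with at least 30 counts, -0.27 within 3000 bp of a TSS, -0.14 without the first untreated WT library -0.34 without the first untreated USP18-/- library and 0.33 at its highest. IFIT3 +1014 became 0.0029 with DESeq2 size factors, 0.012 with the replicate block, 0.011 with DESeq2, 0.24 without the second untreated WT library and 0.28 without the first untreated USP18-/- library. IFIT3 +15828 became -0.0851 with the sum of counts, -0.0105 with at least 30 counts -0.20 without the second untreated WT library and 0.33 without the first. IFIT1B -8370 became 0.00947 without the first untreated WT library and 0.19 without the second untreated USP18-/- library, with -0.66 at its lowest, and IFIT1B -3684 became -0.22 without the first untreated USP18-/- library, with 0.74 at its highest. IFIT1 +658 became 0.014 with DESeq2 size factors, 0.010 with DESeq2, 0.26 without the first untreated WT library 0.098 without the second untreated USP18-/- library and -0.25 at its lowest. With 2 libraries per group and few tags at the distal windows, small differences there were not detectable.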
